A study of Rattus norvegicus with 24 samples.

Results

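The comparison described here set infarcted rat hearts that carried a sutured patch against infarcted hearts left without a patch. It was chosen by treatment label and held 12 of the 24 libraries of the study, 6 labelled Sutured patch and 6 labelled MI. RNA came from the left ventricle of rats of the outbred Sprague Dawley strain and was taken from the infarct region on day 7 after infarction and implantation. MI stands for myocardial infarction, and Sham, the operated control, and Microneedle patch, a patch held by needles, are the other groups, with 6 libraries each. All rats of both compared groups carried an infarct, and the sutured patch was the labelled difference between them. The sources used here do not give the age and sex of the rats, the makeup of the patch or the time between infarction and implantation. The labels also do not state that each library came from a separate rat, so that the p-values refer to the spread of the libraries, which may be technical in part.

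A myocardial infarct is heart muscle that has died after its blood supply stopped. In rodents the dead muscle is first invaded by neutrophils and macrophages, and is then replaced by granulation tissue in which fibroblasts turn into myofibroblasts and lay down collagen. An epicardial patch is a sheet fixed on the surface of the heart to support the thinned wall, and stitching it passes thread through living tissue. In bulk tissue such as this, fewer cells of a type and less RNA per cell cannot be told apart.

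Total counts per library were alike in both groups, from 12864218 to 13974505 in MI and from 12574300 to 14437712 with the sutured patch. A floor of 3 counts in 1 library was worth between 0.200 and 0.231 CPM (counts per 1000000 counts of the scaled library), a limit that covers counting error only. Sutured patch replicate 1 stood closer to the MI libraries than the other patch libraries did. The reason was not tested and cannot be told from the files, so means and counts of calls of the patch group rest in part on whether this library represents it. Without it 3458 genes were called, against 2141 with it. The table identifies genes by Ensembl gene ID without symbols. The 41 gene lists and marker sets drawn up for this tissue could therefore not be applied, and the labelled tissue was not checked against its markers. Genes are described as groups set by level, by size of change and by evenness over libraries, and 4 IDs are shown in full.

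With the sutured patch 1280 genes were higher and 861 were lower than in MI, out of 13967 genes tested. Together these 2141 genes were 15.3% of those tested, 9.16% in the upward and 6.16% in the downward direction (edgeR quasi-likelihood test of these 12 libraries, adjusted p below 0.05). An unadjusted p below 0.05 was reached by 4829 genes. Most changes were modest. The median log2 fold change was 0.63 among the genes that rose, or 1.55-fold, and -0.74 among those that fell, or 1.67-fold. The median over all genes tested was 0.005. The count depended on which libraries were fitted. In a fit of all 24 libraries 661 genes were called, 418 higher and 243 lower. In that fit the Sham and microneedle libraries also enter the spread, the filter and the scaling, and the part of each was not tested. Of these 661 genes, 618 were also called in the same direction from the 12 libraries alone.

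Summed over the genes that rose, the share of a library's counts averaged 6.61% ± 0.462 in MI (SD, n = 6) and 10.6% ± 1.30 in the patch group (SD, n = 6). Their share ran from 5.88% in MI replicate 1 to 7.16% in MI replicate 6. With the patch it was 8.41% in replicate 1, 11.7% in replicate 2, 11.4% in replicate 3, 10.3% in replicate 4, 9.91% in replicate 5 and 11.7% in replicate 6. The genes that fell summed to 11.05% ± 0.677 in MI and 6.78% ± 0.824 in the patch group. Their patch values were 7.98% in replicate 1, 5.91% in replicate 2, 6.89% in replicate 3, 6.29% in replicate 4, 7.49% in replicate 5 and 6.11% in replicate 6, against 10.04% to 11.6% in MI. The groups did not overlap in either share, which follows from choosing the genes in these libraries, and sutured patch replicate 1 was the library nearest to MI in both. In libraries that took no part in the choice, the rising genes made up 6.67% ± 1.29 of Sham and 9.86% ± 0.730 of microneedle patch libraries, and the falling genes 7.37% ± 0.812 and 7.65% ± 1.02.

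**Figure D1:**
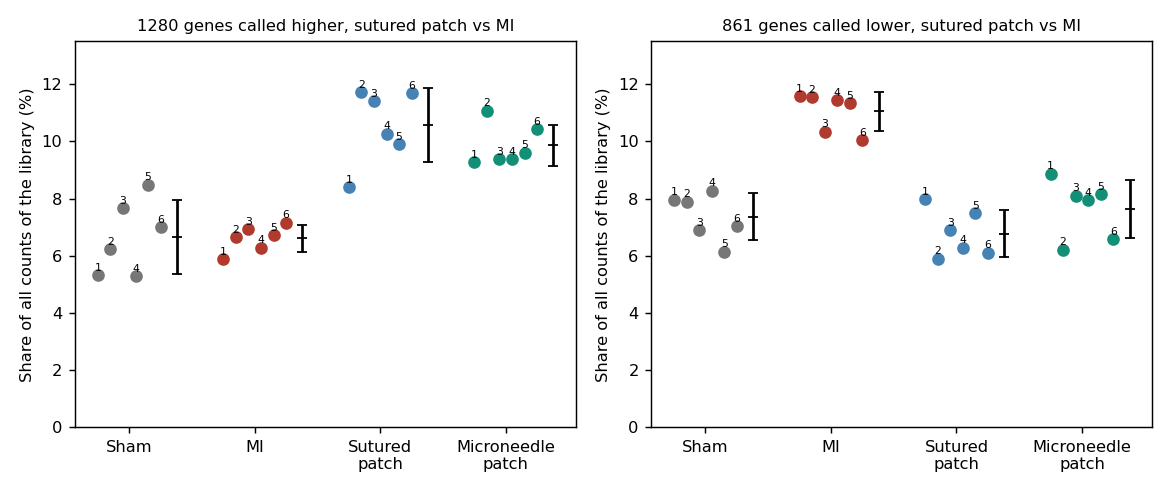
Share of all counts of each library (%, y axis) held by the 1280 genes called higher (left) and the 861 genes called lower (right) with the sutured patch against MI, by group (x axis). Points are libraries with their replicate number, and bars give the mean and SD of 6 libraries. Sutured patch replicate 1, at 8.41% and 7.98%, lies nearest to the MI libraries.

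Per gene, the rising genes had a median of the group mean of 22.6 CPM in MI and 36.6 CPM with the sutured patch, beside 21.2 CPM in Sham and 33.2 CPM with the microneedle patch. The falling genes had medians of 38.8 CPM in MI, 23.0 CPM with the sutured patch, 31.6 CPM in Sham and 27.2 CPM with the microneedle patch. These CPM values describe sets of genes and are not corrected for gene length. Calls were more frequent at higher levels. Of the 303 genes with a mean under 1 CPM over the 12 libraries 4.95% were called, of 3793 genes at 1 to 10 CPM 11.7%, of 7872 genes at 10 to 100 CPM 16.5%, and of 1921 genes at 100 to 1000 CPM 19.2%. At 10 to 100 CPM, 820 genes rose and 478 fell. The most abundant genes leaned the other way: of 78 genes at 1000 CPM or more, 15 were called and 12 of these fell. Whether this lean differs from that of other genes was not tested.

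Large rises and large falls differed in how often they passed the test. A rise of at least 2-fold was fitted for 451 genes, and 329 of these (72.9%) were called. A fall of at least 2-fold was fitted for 599 genes, of which 238 (39.7%) were called. Steep changes were mostly rises, since at 4-fold or more 108 genes were called higher and 17 lower. The 361 large falls that missed the threshold were nearly as deep as those that passed, with median log2 fold changes of -1.19 and -1.30. The sets differed in spread by construction, since the test weighs the fold against the spread. The median SD of log2 CPM among the 6 sutured patch libraries was 1.26 for the large falls that missed the threshold and 0.64 for those that passed. Among the 6 MI libraries the same medians were 0.64 and 0.39.

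The libraries took unequal parts in these uneven falls. Relative to the mean of the MI libraries, the 361 genes had a median log2 difference of -0.07 in sutured patch replicate 1, -1.96 in replicate 2, -1.70 in replicate 3, -0.87 in replicate 4, -0.77 in replicate 5 and -2.90 in replicate 6. The MI libraries themselves ran from 0.86 in replicate 1 to -0.66 in replicate 3. Replicate 1 of the sutured patch thus lay close to the MI mean. Replicates 4 and 5 lay slightly below the lowest MI library, and replicates 2, 3 and 6 more than a log2 unit below it. For the 238 large falls that were called, the patch libraries lay closer together, from -0.83 in replicate 1 to -1.59 in replicate 6, and the MI libraries stayed between -0.20 and 0.19. The 329 large rises that were called spanned 0.91 in replicate 1 to 1.90 in replicate 6. All of these sets were defined by the fold changes and calls of the same libraries, so their medians are descriptions.

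The sutured patch group was the more variable of the pair across the whole transcriptome. The SD of log2 CPM was larger with the sutured patch than in MI for 11113 of the 13967 genes (79.6%), with medians of 0.331 and 0.204. The biological coefficient of variation, the spread of true levels between libraries beyond counting error, was 32.8% with the sutured patch and 20.6% in MI. A principal component analysis of these 12 libraries gave a first axis with 43.2% of the variance, on which the MI libraries lay from -58.9 (replicate 1) to -12.5 (replicate 3). The patch libraries lay at -13.6 (replicate 1), 68.5 (replicate 2), 45.7 (replicate 3), 17.6 (replicate 4), 12.3 (replicate 5) and 66.0 (replicate 6). Replicate 1 of the patch therefore fell within the MI range, and the other 5 patch libraries lay outside it. The second component, with 15.7% of the variance, set patch replicates 2 and 6 apart from each other, at 63.2 and -47.3. Correlations of log2 CPM across the genes ordered the 6 patch libraries in the same way. The median correlation of a library with the MI libraries was 0.970 to 0.978 within MI, 0.966 for sutured patch replicate 1, and lowest for sutured patch replicates 2 and 6, at 0.903 and 0.905.

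Among the called genes, evenness was counted as the number of the 6 sutured patch libraries that lay beyond all 6 MI libraries. All 6 did so for 640 of the 1280 genes that rose and for 408 of the 861 that fell (47.4%). Over all genes tested, 4.86% had all 6 patch libraries above MI and 3.47% had all 6 below. A further 471 rises and 316 falls had 5 patch libraries beyond MI, and 152 rises and 91 falls had 4. These counts use the contrast that made the calls and are descriptions of it. Called rises carried by a single library were few, which follows in part from the test, since it weighs the fold against the spread. In 26 of the 1280 genes (2.03%) more than 50% of the summed CPM of the 6 patch libraries came from 1 library, and in 19 of these that library was replicate 6. The same share was not counted over all genes tested.

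Sutured patch replicate 1 overlapped with MI more often than any other patch library. It was above every MI library in 68.4% of the rises and below every MI library in 68.1% of the falls. The other 5 patch libraries were above every MI library in 89.7% (replicate 5) to 96.9% (replicate 3) of the rises, and below it in 87.1% to 93.4% of the falls. Of the 471 rises with 5 libraries beyond MI, the library that overlapped was replicate 1 in 277, and of the 316 such falls it was replicate 1 in 177. Replicate 1 also had the lowest of the 6 patch values in 660 rises (51.6%) and the highest in 407 falls (47.3%). The most extreme values sat mainly in replicates 2 and 6. Replicate 2 was highest in 508 rises (39.7%) and lowest in 341 falls (39.6%), and replicate 6 was highest in 333 rises (26.0%) and lowest in 222 falls (25.8%).

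**Figure D2:**
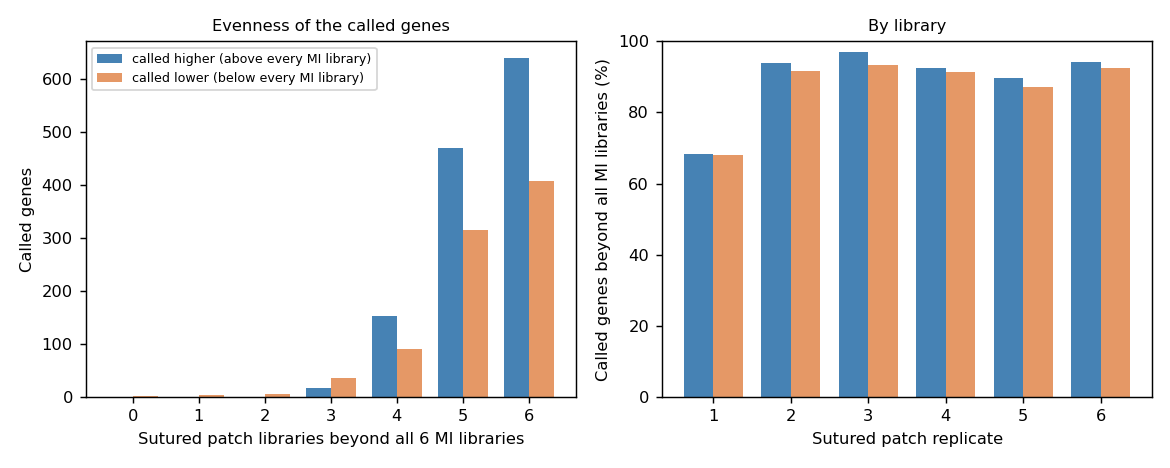
Left, number of called genes (y axis) by the number of sutured patch libraries lying beyond all 6 MI libraries (x axis), for genes called higher (blue) and lower (orange). Right, percentage of the called genes of each direction for which each sutured patch replicate lay beyond all MI libraries; replicate 1 stands at 68.4% and 68.1%, the other 5 at 87.1% or more.

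Each library was then left out in turn, so that it could be read in genes it had not helped to choose. In the rises called by the other 11 libraries, the left-out sutured patch library had a median log2 difference from the MI mean of 0.74 (replicate 2), 0.85 (replicate 3), 0.57 (replicate 4), 0.44 (replicate 5) and 0.61 (replicate 6). Each of these 5 libraries lay above the MI mean in 90.7% to 98.1% of the genes. Replicate 1 had a median of 0.22, where the other 5 patch libraries together had 0.58, and lay above the MI mean in 80.7% of the genes. In the falls the left-out medians were -0.21 for replicate 1 and from -0.53 (replicate 5) to -0.87 (replicate 2) for the others. Replicate 1 was below the MI mean in 74.4% of the falls, and the others in 91.2% to 98.6%. The 6 MI libraries still took part in choosing these genes.

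The MI libraries were read in the same manner, against the mean of the other 5 MI libraries. Left-out MI replicate 6 was above that mean in 80.1% of the rises, with a median of 0.15, and below it in 81.0% of the falls, with a median of -0.16. MI replicate 3 was above it in 77.4% of the rises (median 0.19) and below it in 73.9% of the falls (median -0.24). MI replicate 1 was displaced away from the patch in the rises, with a median of -0.23 and 21.0% of them above the mean. MI replicates 2, 4 and 5 had medians between 0.01 and 0.08 in the rises. In the direction of the patch, sutured patch replicate 1 was thus about as far from the MI mean as MI replicates 3 and 6 were from the other MI libraries, although the genes differ between these readings.

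The number of calls moved with the libraries used. Without sutured patch replicate 1 it rose to 3458, and 2110 of the original 2141 calls (98.6%) remained. Without sutured patch replicate 3, the count fell to 1299. Leaving out MI replicates 1, 2, 4 and 5 gave 1249, 1419, 1379 and 1330 calls. Omitting any of the other libraries gave 1680 to 2309. Without sutured patch replicates 2 and 6 together, the libraries farthest from MI and left out after the data were seen, 1646 genes were called, 1403 of them among the 2141. A set of 1094 genes (51.1%), 673 higher and 421 lower, was called in all 12 fits with a library left out. Of these, 790 also had all 6 patch libraries beyond all 6 MI libraries, 487 above and 303 below. Over all genes tested, 4.86% had all 6 patch libraries above MI and 3.47% all 6 below. Each of the 12 fits shares most of its libraries with the fit that made the calls, so both counts are descriptions.

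**Figure D3:**
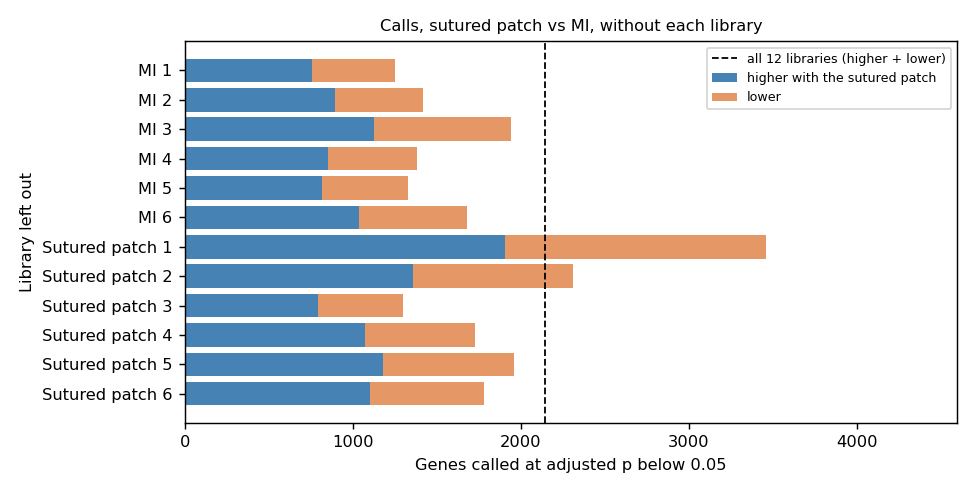
Genes called at an adjusted p below 0.05 (x axis) for the sutured patch against MI after leaving out the library named on the y axis, split into genes higher (blue) and lower (orange) with the patch. The dashed line marks the 2141 genes called with all 12 libraries; the count ranges from 1249 without MI replicate 1 to 3458 without sutured patch replicate 1.

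Among called genes, more crossed the level of 1 CPM upward than downward. A mean under 1 CPM in MI and of at least 1 CPM with the sutured patch was found for 216 genes tested, and 70 of these were called higher, with a median log2 fold change of 2.51. The opposite crossing was found for 289 genes, of which 39 were called lower, with a median of -1.62. Genes this low in MI passed the filter on low counts mainly through the patch libraries and were called with them, so their presence there was largely fixed by the choice and is a description. Of the 70 genes, 48 reached 1 CPM in all 6 patch libraries and 15 in 5 of them. Counted by library, 61 of the 70 reached 1 CPM in sutured patch replicate 1, 64 in replicates 2 and 3, 65 in replicate 4, 69 in replicate 5 and 68 in replicate 6. In MI they were not evenly low: 26 of the 70 reached 1 CPM in MI replicate 3 and 20 in MI replicate 6, against 7 or fewer in each other MI library. Near absence was rare, since 1 gene called higher had at most 3 counts over the 6 MI libraries. For the genes called lower, 0 had at most 3 counts over the 6 patch libraries. The 39 genes that crossed downward were likewise chosen by their means and calls in these libraries. Of these 39 genes, 31 to 39 reached 1 CPM in each MI library. With the patch, 13 did so in replicate 1 and 5 or fewer in each of the other libraries.

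To read the comparison in genes chosen without any of its 12 libraries, genes were sorted by the difference between the microneedle patch and Sham, a test in which 41.7% of 13733 genes were called. That contrast takes in the infarct and a patch together, and the sorting was chosen after the data were seen. Of 2058 genes at least 2-fold higher with the microneedle patch than in Sham and tested here, 416 (20.2%) rose with the sutured patch and 158 (7.68%) fell, with a median log2 fold change of 0.20. Of 2038 genes at least 2-fold lower, 36 (1.77%) rose and 203 (9.96%) fell, with a median of -0.37. The 7925 genes not called between the microneedle patch and Sham had a median of 0.022, with 7.97% called higher and 4.83% lower. Genes raised in the microneedle infarct over Sham were thus called higher with the sutured patch more often than the 9.16% of all genes. They were also called lower slightly more often, at 7.68% against 6.16% of all genes. Genes lowered in the microneedle infarct were called lower more often than all genes, and higher less often, at 1.77% against 9.16%.

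At 8-fold or more the pattern split between direction and evenness. Of 436 genes at least 8-fold higher with the microneedle patch than in Sham, 122 (28.0%) rose with the sutured patch and 39 (8.94%) fell, and the median log2 fold change was 0.41. Of all genes tested, 9.16% rose and 6.16% fell. The 405 genes at least 8-fold lower had the larger median, -0.97, yet 23 of them (5.68%) were called lower, near the 6.16% of all genes, and 3 (0.741%) higher. Their median differences from the MI mean were 0.06 in sutured patch replicate 1, -1.42 in replicate 2, -1.48 in replicate 3, -0.52 in replicate 4, -0.59 in replicate 5 and -2.75 in replicate 6. The MI libraries ranged from 0.89 (replicate 1) to -0.77 (replicate 3), with the other 4 between -0.08 and 0.03. Patch replicates 1, 4 and 5 therefore lay inside the range of MI, and replicates 2, 3 and 6 below it.

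**Figure D4:**
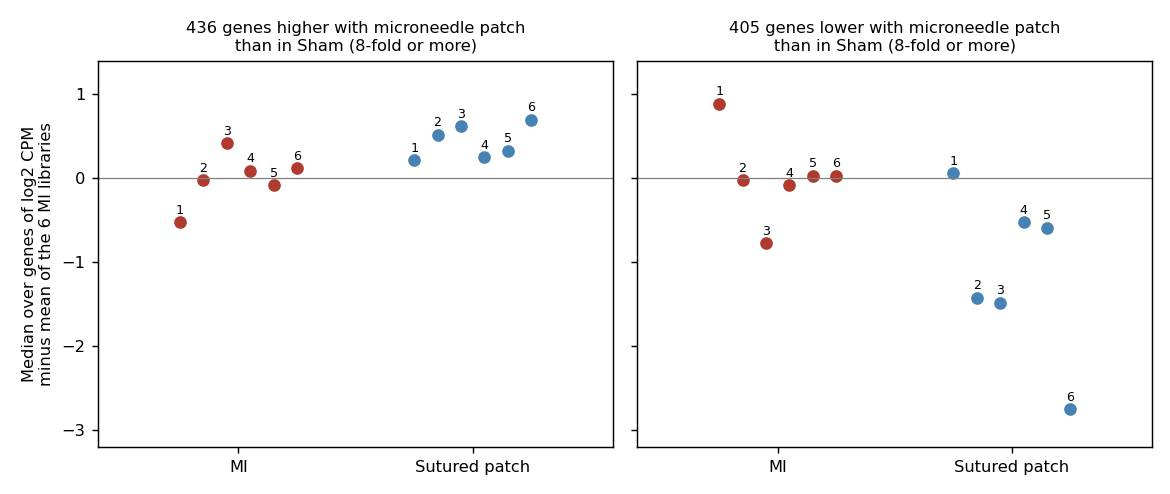
Median over genes of the difference in log2 CPM from the mean of the 6 MI libraries (y axis) in each MI and sutured patch library (x axis, points with replicate numbers), for 436 genes at least 8-fold higher (left) and 405 genes at least 8-fold lower (right) with the microneedle patch than in Sham. In the right panel sutured patch libraries run from 0.06 (replicate 1) to -2.75 (replicate 6), and MI libraries from 0.89 to -0.77.

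The same groups of genes were followed as shares of all counts. The genes at least 8-fold lower summed to 3.54% ± 1.47 of counts in MI (SD, n = 6) and to 2.01% ± 1.06 in the sutured patch group, beside 12.3% ± 3.78 in Sham and 0.739% ± 0.113 in the microneedle patch group that defined them. Sutured patch replicate 1, with 3.70%, lay above 5 of the 6 MI libraries, and replicate 6 had 0.709%. The genes at least 8-fold higher summed to 10.5% ± 2.04 in MI and 10.4% ± 1.05 in the sutured patch group, beside 0.725% ± 0.0898 in Sham and 13.1% ± 0.829 in the microneedle patch group. MI and sutured patch libraries overlapped in both shares. The large falls were set beside the wider 2-fold sorting as well. Of the 361 genes with an uncalled fall of at least 2-fold, 226 (62.6%) were at least 2-fold lower with the microneedle patch than in Sham, as were 58 of the 238 called falls (24.4%) and 14.6% of all genes tested. The called falls lay about as often on the other side. Of the 238, 61 (25.6%) were at least 2-fold higher with the microneedle patch than in Sham, as were 17 of the 361 uncalled falls (4.71%). Of the 329 called rises of at least 2-fold, 206 (62.6%) were at least 2-fold higher with the microneedle patch than in Sham, beside 14.7% of all genes tested. Another 15 of these rises (4.56%) were at least 2-fold lower there. Of the 122 uncalled rises of at least 2-fold, 40 (32.8%) were at least 2-fold higher with the microneedle patch than in Sham and 17 (13.9%) at least 2-fold lower.

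The nearest other group was the microneedle patch, and the patches were compared directly. Of 13903 genes tested between them 58 (0.417%) were called. Among the 2141 genes called for the sutured patch against MI, 9 were also called between the patches. The median log2 difference, sutured minus microneedle patch, was 0.13 over the 1280 rising and -0.15 over the 861 falling genes. The comparisons share the sutured patch libraries, which pulls these medians to the side of the calls. The count of 9 moved between 0 and 60 when libraries were left out (60 without sutured patch replicate 6, 48 without replicate 1, and 0 without sutured patch replicates 4 or 5 or microneedle patch replicates 1 or 6), and was 267 with DESeq2. The 12 libraries of the patches therefore showed few differences by this test, which does not show that the patches acted alike.

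ENSRNOG00000028043 rose most steeply of the IDs whose higher group averaged 10 CPM or more. It stood at 0.374, 0.681, 1.15, 0.0771, 0.147 and 1.27 CPM in MI replicates 1 to 6, from 50 counts in all. With the sutured patch it stood at 11.2, 7.61, 26.8, 2.89, 30.2 and 36.9 CPM in replicates 1 to 6, from 1628 counts. Every patch library exceeded every MI library, with replicate 4 lowest and replicates 3, 5 and 6 highest. The log2 fold change was 4.95 (SE 0.71, adjusted p = 0.00161), and it ranged from 4.66 to 5.30 when single libraries were left out. In Sham it had 0 counts in all 6 libraries, where 3 counts over the group would have been 0.053 CPM, and with the microneedle patch it averaged 7.16 ± 3.17 CPM (SD, n = 6). The difference between the patches did not pass the test (log2 fold change 1.44, adjusted p = 0.156).

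ENSRNOG00000025074 was the next steepest rise and was less even. Its MI values in replicates 1 to 6 were 0.300, 0.529, 1.69, 0.0771, 0.515 and 0.0706 CPM. Its sutured patch values were 6.02, 12.6, 28.4, 4.30, 12.8 and 0.734 CPM. Here the library that overlapped with MI was replicate 6, not replicate 1. In 5 of 6 patch libraries it exceeded all MI libraries. The fitted log2 fold change was 4.34 (SE 0.84, adjusted p = 0.00687), and 3.77 without sutured patch replicate 3. This ID was uneven in the other groups too, with 5.50 ± 4.79 CPM with the microneedle patch and 3.77 ± 6.36 CPM in Sham, where replicate 5 alone had 16.6 CPM.

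ENSRNOG00000030848 showed the steepest called fall of this abundance. It had 381, 159, 77.5, 154, 116 and 106 CPM in MI replicates 1 to 6. With the patch it had 91.7, 17.1, 32.0, 33.2, 65.5 and 4.20 CPM in replicates 1 to 6. Replicate 1 stood above MI replicate 3 and the other 5 patch libraries below every MI library. The log2 fold change was -2.02 (SE 0.59, adjusted p = 0.037), but the call was lost in 7 of the 12 fits with a library left out. Without MI replicate 1, the library with the highest value, it was -1.58 (adjusted p = 0.0909). The adjusted p was 0.061, 0.0611 and 0.0546 without MI replicates 2, 4 and 5, and 0.067, 0.0778 and 0.0667 without sutured patch replicates 2, 3 and 4. The adjusted p rose to 0.0707 with no filter on low counts, and to 0.0595 when sutured patch replicates 2 and 6 were both left out. The ID averaged 417 ± 342 CPM in Sham and 18.3 ± 7.80 CPM with the microneedle patch. Its group means thus fell in the order Sham, MI, sutured patch and microneedle patch, but libraries overlapped at each step. The difference between the patches did not pass the test for this ID (log2 fold change 1.16, adjusted p = 0.273).

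ENSRNOG00000007810 fell nearly as far. Its MI libraries lay close together, at 59.7 ± 11.5 CPM (SD, n = 6), and its patch libraries were more spread for their level, at 15.3 ± 9.93 CPM. Its MI values were 42.0, 61.6, 67.4, 73.7, 50.7 and 62.8 CPM in replicates 1 to 6, against 12.6, 28.9, 24.8, 2.82, 14.7 and 7.94 CPM with the sutured patch. All 6 patch libraries lay below every MI library, and replicate 4, not replicate 6, was lowest. The log2 fold change was -1.96 (SE 0.41, adjusted p = 0.00917), and it kept its call in all 12 fits with a library left out (adjusted p from 0.00603 to 0.0222). Unlike ENSRNOG00000030848, it was close to absent from Sham, with 0.537 ± 1.02 CPM, and averaged 34.4 ± 15.1 CPM with the microneedle patch. Its difference between the patches did not pass the test (log2 fold change -1.17, adjusted p = 0.183). These falls thus concerned an ID that was abundant in Sham tissue and an ID that was nearly missing there. Reads shared between these IDs and overlapping or near-identical genes were not tested for.

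**Figure D5:**
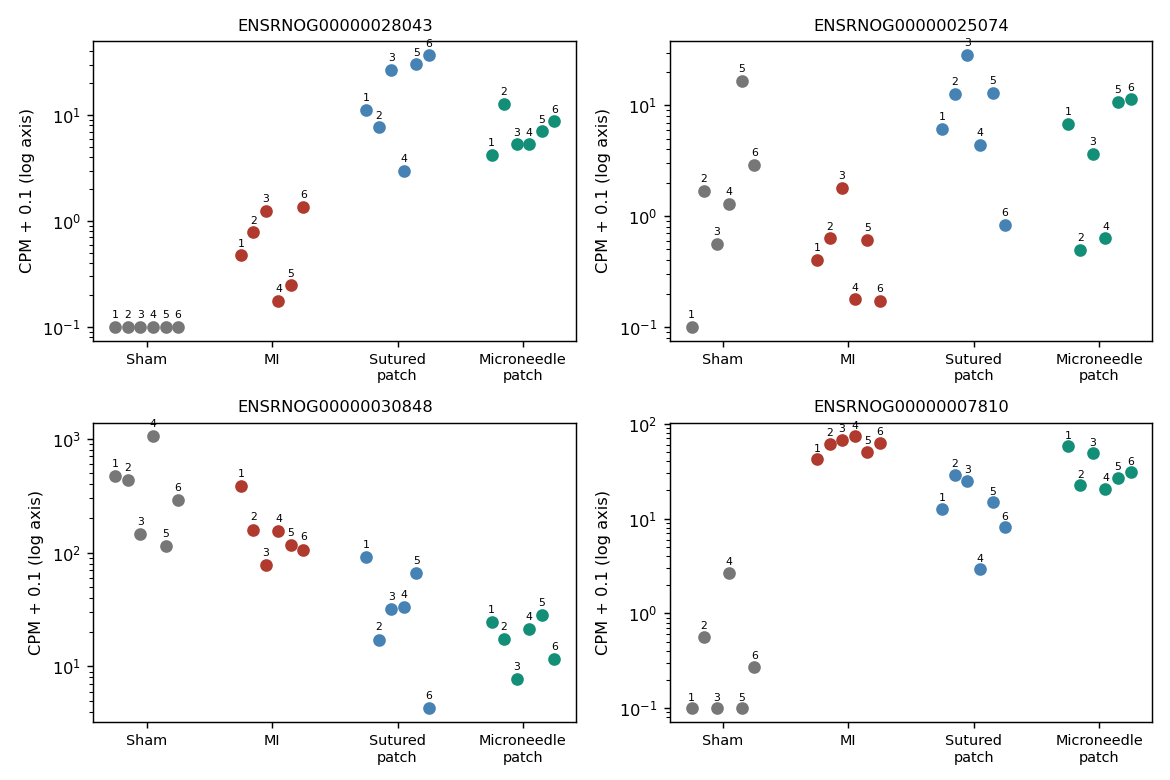
CPM plus 0.1 (log axis, y) of the 4 IDs in each library of the groups on the x axis; points are libraries with their replicate numbers. ENSRNOG00000028043 and ENSRNOG00000007810 do not overlap between MI and the sutured patch, ENSRNOG00000025074 overlaps through patch replicate 6 and ENSRNOG00000030848 through patch replicate 1.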

How the data were processed

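The authors deposited unnormalized read counts per Ensembl gene ID in 1 column per library. Per the submitters' processing notes, reads were handled with HISAT2 and featureCounts on the build rn6. The sources used here do not give versions, the annotation release or the use of strand. Per the labels' protocols, Trizol was used for extraction and a NEBNext Ultra kit for the libraries. Columns were assigned by the code in each sample title, with 0 left over. Of the 32883 IDs, 0 could be matched to symbols, because the RefSeq table used here (GRCr8) carries 0 Ensembl IDs, so 0 of 41 gene lists were run and no sequence could be tied to an ID.

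The 12 libraries of the sutured patch and MI groups were fitted alone in edgeR 4.0.16 (R 4.3.3), with filterByExpr at its default minimum count of 10 (13967 genes, 99.5% to 99.9% of counts), TMM scaling, robust dispersions, the quasi-likelihood F test and Benjamini-Hochberg adjustment over all genes kept. Calls needed an adjusted p below 0.05. The SE was derived from the log2 fold change and F (their ratio after taking the root of F). CPM values of single IDs, of group medians and of the floor use TMM factors of all 24 libraries. The bins of mean CPM, the crossings of 1 CPM, the counts of libraries beyond MI or most extreme, and the share of summed CPM in 1 library use factors of the 12 libraries. Positions of libraries use log2 CPM with a prior count of 2 on the scale of the 12 libraries. Alternatives were DESeq2 1.42.0, limma 3.58.1 (voom), other scaling and filters, a replicate block, all 24 libraries, and each library left out. The test was checked on simulated data in which each gene had the same spread in both groups, so the check does not cover the unequal spread of these groups. Counts of the 30 pairs of libraries of the same group differed beyond sampling noise (chi-square divided by its degrees of freedom 14.6 or more), so no library was counted as a duplicate. IDs were printed by a rule, the 2 largest called changes in each direction whose higher group averaged 10 CPM or more. The comparison, lists and rules were chosen with earlier results of these data known.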

Additional observations from a re-analysis of the deposited data

Results flagged for a closer look

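In 41 sets of 6 library values the gap between the outermost library and its neighbour was compared with the range of the group (Dixon's test at the 95% level). It was exceeded in 8 sets. Chance gives about 1 in 20 only for independent sets of normally distributed values. Some of these sets hold low, skewed CPM values, and many come from the same libraries, so the 8 cannot be read as an excess. Sutured patch replicate 2 had 16359 genes with at least 1 count, the next library 17155. Sutured patch replicate 5 had 22.95% of its counts in its 100 most abundant genes, and the next 24.78%. MI replicate 1 held 6.303% of its counts in the genes at least 8-fold lower with the microneedle patch than in Sham, and the next MI library 3.367%. The same library had 381 CPM of ENSRNOG00000030848, the next 159 CPM, and the call for this ID was lost without it. MI replicate 3 had 1.69 CPM of ENSRNOG00000025074, and the next 0.529 CPM. In Sham, replicate 5 had 16.6 CPM of ENSRNOG00000025074 (next 2.79 CPM), replicate 4 had 2.58 CPM of ENSRNOG00000007810 (next 0.466 CPM), and replicate 4 held 0.9017% of counts in the genes at least 8-fold higher with the microneedle patch (next 0.7256%).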

How the results depend on the processing

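The total of 2141 calls was 661 in the fit of all 24 libraries and 567 with a 2-fold minimum, and from 1249 to 3458 with single libraries left out. The 1280 rises became 418, 329, and 754 to 1906 under the same settings, and the 861 falls 243, 238, and 495 to 1552. The falls also moved to 1402 with DESeq2, which called 3202 genes, 2135 of them among the 2141. DESeq2 size factors (2132), limma-voom (2670), no filter (1724) and non-robust estimation (2156) kept the total within 1.5 times. The causes were not tested, beyond the 2-fold minimum, which removes genes by construction. Replicate numbers carry no stated pairing. Same-numbered MI and patch libraries deviated together with correlations of 0.41, 0.178, 0.153, -0.013, 0.124 and 0.117 for numbers 1 to 6. MI replicates 1, 2 and 5 correlated best with the patch library of their own number, and MI replicates 3, 4 and 6 did not. Whether the numbers mark a shared batch or handling was not tested. With the replicate block 2880 genes were called, 1496 higher and 1384 lower. The 9 called genes that differed between the patches were 267 with DESeq2, 3 with no filter, and 0 to 60 with single libraries left out. They were 5 or fewer without sutured patch replicates 3, 4 or 5, or without microneedle patch replicates 1, 2, 3, 4 or 6, and 14 without microneedle patch replicate 5. Of the 4 IDs, 3 kept direction and call under all 20 alternatives tried, with adjusted p-values up to 0.0279. ENSRNOG00000030848 kept its direction in all 20 and lost its call in 9. Of the 303 genes with a mean under 1 CPM 4.95% were called, with a median SD of log2 CPM of 0.70 in the patch group and 0.57 in MI; the part of depth in this was not tested.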

Other observations

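The 100 genes most abundant in Sham, chosen from Sham libraries alone, summed to 18.4% ± 0.752 of counts in MI (SD, n = 6) and 16.8% ± 1.20 in the sutured patch group, beside 22.4% ± 2.13 in Sham. Their sutured patch values ran from 15.2% (replicate 6) to 18.4% (replicate 1) and overlapped with MI, at 17.6% to 19.5%. All 100 genes were tested, and 6 were called lower and 4 higher with the sutured patch, beside 15.3% of all genes tested that were called in either direction. Their median log2 fold change was -0.33, and their median difference from the MI mean was -0.04 in patch replicate 1 and -0.90 in replicate 6.

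In 4 measures of the depth and composition of libraries, no difference between the groups passed at an adjusted p below 0.05 (exact permutation tests). With 6 libraries a side this does not show that the groups were alike in them. The share of a library's counts in its own 100 top genes was 24.9% ± 0.994 in the sutured patch group and 26.6% ± 1.70 in MI (exact permutation test, two-sided p = 0.0758, adjusted p = 0.303 over 4 such measures, n = 6 each). The genes detected by 1 count or more numbered 17080 ± 364 with the patch and 17240 ± 107 in MI (exact permutation test, two-sided p = 0.444, adjusted p = 0.592).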
